A study of Mus musculus with 30 samples.

Results

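The conversion of cultured fibroblasts by MyoD was followed over a single day by setting 3 arrays of cells at 24 h against 3 arrays of the same kind of cells at 0 h, which were 6 of the 30 arrays of the study. Both groups were taken by their titles, with no use of measured values. All cells were mouse embryonic fibroblasts from animals without working copies of MyoD and Myf5 (MyoD-/- Myf5-/-), and both groups carried a retrovirus for wild-type mouse MyoD fused to the hormone-binding domain of the estrogen receptor (ER-MyoD wt). The cells were moved to a medium that promotes muscle differentiation, supplemented with beta-estradiol, for 24 h, and those at 0 h stand for the start of that treatment. Arrays of ER-MyoD wt at 6 and 12 h, and of fibroblasts of the same genotype with an empty retrovirus at 6, 12 and 24 h, 3 of each, were used only to place the change in time and beside the medium. The 30 arrays hold no empty retrovirus at 0 h, so the medium, the hormone and MyoD cannot be told apart in the difference between 24 h and 0 h. Whether the 3 arrays of a group stand for separate cultures is not in the labels, so the p-values reflect the spread between arrays within groups, pooled over the 10 groups of the fit, and that spread may be technical. Fitted on the 6 arrays alone, 2429 genes were higher and 2629 lower at 24 h.

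MyoD is a basic helix-loop-helix transcription factor that binds short DNA motifs called E-boxes together with an E protein, and it can turn fibroblasts into skeletal muscle cells. Its fusion to the estrogen receptor domain is meant to stay inactive until the hormone is added. Whether the fusion was inactive at 0 h was not tested here. In the cell, MyoD raises myogenin and the MEF2 factors, the cells leave the cell cycle, and genes of the contractile apparatus, of the acetylcholine receptor and of calcium release follow as the cells align and fuse.

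Expression was measured on Affymetrix Mouse Genome 430 2.0 arrays as 1 linear signal per probe set, and 18193 genes were tested, each through the probe set with the highest mean signal. Differences are given as log2(signal + 16) at 24 h minus 0 h, ± the standard error of the model, n = 3 arrays per group. A difference of 1 on this scale is a 2-fold change and a difference of 5 a 32-fold change, but the scale understates the change of genes with a low signal. The threshold was an adjusted p of 0.05 in limma over all genes, and a gene below it is said to have passed. The 3 arrays at 0 h correlated with each other at Pearson's r between 0.962 and 0.972, those at 24 h between 0.946 and 0.966, and arrays of different groups between 0.868 and 0.883. These correlations are across the 18193 genes after quantile normalization, and genes are not independent. The median signal was between 39.2 and 45.3 in 5 of the 6 arrays and 59.2 in replicate 3 at 24 h, which stood apart in this respect. The 3′ to 5′ signal ratio, a sign of RNA quality, was between 0.815 and 1.03 for Gapdh and between 1.10 and 1.93 for Actb, highest in replicate 2 at 24 h. Without replicate 3 at 24 h 2489 genes were higher and 2630 lower, against 2634 and 2947 with it.

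MyoD itself was checked first. Myod1 had signals of 1299, 1105 and 1151 at 0 h and 746, 451 and 639 at 24 h. The arrays at 24 h were all below those at 0 h, but the difference did not pass (-0.84 ± 0.35, adjusted p = 0.0735). In empty retrovirus cells at 24 h the signal was 214, 213 and 256. Myf5 gave 375, 458 and 305 at 0 h and 479.5, 499.9 and 291 at 24 h, overlapping groups (0.11 ± 0.28, adjusted p = 0.839). Where the probes of these genes lie relative to the deletions was not known here, so they do not check the deletions.

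The label of the cells was checked against 8 markers of fibroblasts and 9 of skeletal muscle. At 0 h the fibroblast markers Col1a2 (mean signal 8682), Thy1 (7935), Col1a1 (3706), Col3a1 (1994), Prrx1 (2077) and Dcn (1046) were high, and Pdgfra (188) and Twist1 (185) lower. Of the muscle markers at 0 h, Myog, Mymk, Chrng, Myh3 and Chrna1 had mean signals of 7.65, 12.6, 6.46, 21.0 and 34.3, near the bottom of the scale. Tnnt2 (859.9), Acta1 (234) and Actc1 (105) already had a signal there. Ckm had 87.4 with the probe set used, which has the highest mean, but 18.1 with its other probe set. At 24 h each of these muscle markers had risen, except Ckm with the probe set used. The other probe set of Ckm rose to 703.8. The fibroblast markers did not change in a single direction. At 24 h Col3a1 (mean 6737) and Dcn (2445) were higher and Thy1 (1822) was lower. Pdgfra (76.7) was lower with a call that did not hold without some single arrays, and Col1a1 (2563) did not pass. Values of Col1a2, Prrx1 and Twist1 at 24 h are not given here.

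Across the array 5581 of 18193 genes passed (30.7%), 2634 of them higher (14.5% of all genes) and 2947 lower (16.2%) at 24 h. A rise of at least 1 on the log2 scale was found in 1388 genes (7.63%) and a fall of that size in 1470 (8.08%). At a difference of at least 3 there were 117 rises (0.643%) and 60 falls (0.33%), and at 5 or more 19 rises (0.104%) and 1 fall (0.0055%). The single fall was Ccn2, a matrix signalling protein. The median difference of all genes was -0.034. In such bulk samples a fall in the number of cells of a type and less RNA per cell cannot be told apart. In 3353 genes (18.4%) all arrays at 24 h lay above all arrays at 0 h, and in 3906 (21.5%) all lay below.

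**Figure D1:**
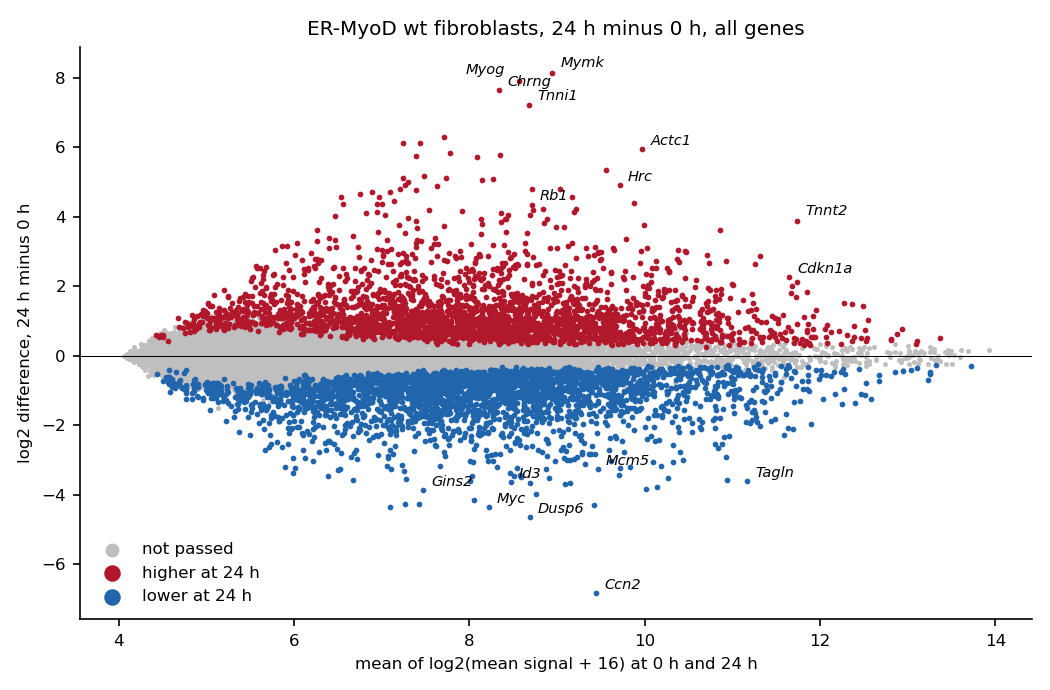
Difference between 24 h and 0 h in ER-MyoD wt fibroblasts for 18193 genes. The x axis is the mean of the 2 groups' log2(mean signal + 16), the y axis the log2 difference at 24 h minus 0 h, and each point is a gene. Red points (2634) and blue points (2947) passed as higher and lower at 24 h, grey points did not pass. Mymk, Myog, Chrng and Tnni1 lie highest and Ccn2 lowest.

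Of 37 measured regulators of myogenesis 17 were higher and 2 lower at 24 h, with a median difference of 0.53 against -0.034 for all genes. Every list count at 24 h against 0 h is to be read beside the shares of all genes, 14.5% higher and 16.2% lower. Myog, the gene of myogenin, which drives terminal differentiation, had signals of 13.7, 3.38 and 5.90 at 0 h and 6196, 6079 and 6063 at 24 h. It went from the bottom of the scale to values within a narrow band in all 3 arrays, a difference of 7.92 ± 0.22 (adjusted p = 2.86e-20). Its mean was 24.4 at 6 h and 613 at 12 h, so most of the change lay between 6 and 24 h. Of the MEF2 factors, which act with MyoD and myogenin on muscle genes, Mef2a had signals of 169, 216 and 155 at 0 h and 4822, 3837 and 4792 at 24 h. It rose by 4.40 ± 0.25 (adjusted p = 4.72e-14) and was already higher at 6 h (2.43, adjusted p = 3.52e-08). Mef2c, with signals of 56.2, 63.0 and 38.7 at 0 h and 381, 403 and 358 at 24 h, rose by 2.44 ± 0.21 (adjusted p = 2.16e-10) and at 6 h had not passed (-0.19, adjusted p = 0.632).

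Zbtb18, a zinc finger repressor needed for muscle differentiation, had signals of 90.3, 67.2 and 79.8 at 0 h and 3088, 3130 and 2455 at 24 h. It rose by 4.80 ± 0.15, with 3.43 of this present at 6 h. Klhl40, a protein that keeps thin filament proteins stable, rose by 4.81 ± 0.27, and Hes6, a helix-loop-helix factor that favours differentiation, by 3.02 ± 0.16. The E proteins, with which MyoD pairs on DNA, differed in direction. Tcf12 rose by 1.82 ± 0.14 (adjusted p = 9.39e-12), with means of 639 at 0 h and 2208 at 24 h. Tcf3 was lower by 0.65 ± 0.20 (adjusted p = 0.0109), and this call did not hold without replicate 1 or 3 at 0 h or replicate 3 at 24 h (adjusted p = 0.0863, 0.0674 and 0.055), nor with the mean of its probe sets (0.35). Srf, the serum response factor, fell from 886, 1123 and 1038 to 426, 514 and 489.8, a difference of -0.96 ± 0.15 (adjusted p = 6.04e-06).

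Among 32 genes of myoblast adhesion and fusion 9 were higher and 9 lower, and the median was -0.054. Both proteins that drive the merging of muscle cell membranes rose steeply. Mymk, the gene of myomaker, had the largest rise of all genes, with signals of 7.29, 4.73 and 25.8 at 0 h and 7513, 8768 and 9098 at 24 h. The groups lay far apart, by 8.14 ± 0.26 (adjusted p = 2.63e-19), and the mean had already reached 1010 at 6 h. Mymx, the gene of the small partner protein myomixer, had signals of 35.0, 18.4 and 5.52 at 0 h and 1351, 1436 and 960.5 at 24 h, a rise of 5.13 ± 0.40 (adjusted p = 2.73e-11). Megf10, a receptor of muscle progenitors, rose by 4.24 ± 0.25 from 77.6, 102 and 77.8 to 2128, 2481 and 1598. M-cadherin, Cdh15, rose by 3.19 ± 0.17 and the semaphorin receptor Plxna2 by 2.34 ± 0.16. Among those that fell was Vcam1. This adhesion molecule of the immunoglobulin family had signals of 1391, 1223 and 1315 at 0 h and 271, 233 and 233 at 24 h and was lower by 2.23 ± 0.12 (adjusted p = 1.33e-14). In empty retrovirus cells at 24 h Vcam1 had a mean signal of 1369.

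The thin filament, made of actin, tropomyosin and the troponins, showed the highest median of the 30 functional lists. Of 21 measured genes 14 rose and 2 fell, with a median of 2.50. Tnni1, the slow troponin I, had signals of 13.4, 9.95 and 24.7 at 0 h and 4829, 6041 and 4809 at 24 h. Every array at 24 h was far above every array at 0 h, a difference of 7.23 ± 0.38 (adjusted p = 1.02e-14), although the means at 6 and 12 h were only 32.2 and 59.2. The fast troponins Tnnc2 and Tnnt3 followed the same late course, with rises of 5.75 ± 0.31 and 5.71 ± 0.40 and means of 14.1 and 40.8 at 12 h. Tnnt2, the troponin T of embryonic and cardiac muscle, behaved in another way. It had signals of 894, 847 and 838 at 0 h and 12130, 15820 and 11930 at 24 h, a rise of 3.87 ± 0.23 (adjusted p = 1.41e-13) from a level that was already clear at 0 h. In empty retrovirus cells its mean was 29.1 at 6 h and 13.3 at 24 h.

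Of the sarcomeric actins, Actc1, the form of embryonic muscle and heart, had signals of 126, 76.8 and 111 at 0 h and 7525, 8818 and 8688 at 24 h and rose by 5.95 ± 0.28 (adjusted p = 1.09e-15). Acta1, the form of adult skeletal muscle, had 298, 223 and 179 at 0 h and 1934, 2102 and 1916 at 24 h and rose by 2.96 ± 0.38 (adjusted p = 2.99e-07). Slow troponin C, Tnnc1, rose by 4.58 ± 0.15, slow troponin T, Tnnt1, by 4.58 ± 0.27 and the thin filament protein Klhl41 by 4.93 ± 0.25. The 2 genes that fell were tropomyosins, the actin-coiling proteins that also form part of stress fibres. Tpm1 had signals of 4591, 4086 and 4577 at 0 h and 1267, 1479 and 1065 at 24 h and fell by 1.61 ± 0.16 (adjusted p = 1.99e-09). Tpm3 fell by 1.34 ± 0.15 (adjusted p = 3.19e-08). Both genes have muscle and non-muscle transcripts, which were not separated here. With only genes at a mean log2 value of 6 or more, the thin filament list held 8 higher genes and the thick filament list 3.

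**Figure D2:**
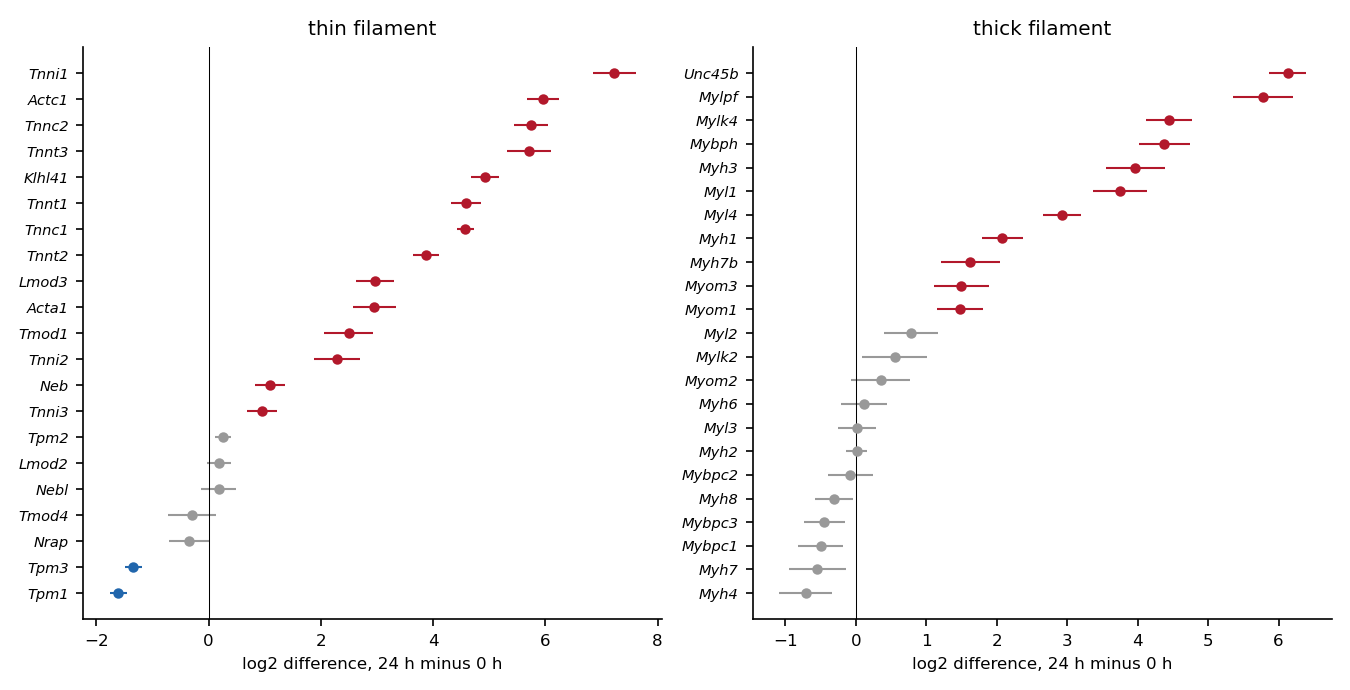
Thin filament genes (left, 21) and thick filament genes (right, 23) in ER-MyoD wt fibroblasts. Each point is the log2 difference at 24 h minus 0 h of a gene and the bar its standard error; red points passed as higher, blue as lower, grey did not pass. Of the thin filament 14 are red and 2, Tpm1 and Tpm3, blue; of the thick filament 11 are red and 0 blue.

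Of 23 thick filament genes 11 rose and 0 fell, with a median of 0.78. Unc45b, the chaperone that folds myosin heads, had signals of 4.16, 1.13 and 8.76 at 0 h and 1452, 1621 and 1257 at 24 h. It rose by 6.13 ± 0.26 (adjusted p = 7.81e-17), with a mean of 26.3 at 12 h. Mylpf, the fast regulatory light chain, had 33.7, 19.7 and 26.7 at 0 h and 2186, 2477 and 2838 at 24 h, a rise of 5.78 ± 0.42 (adjusted p = 7.08e-12). The embryonic myosin heavy chain Myh3 had 19.04, 24.3 and 19.6 at 0 h and 705, 902 and 366 at 24 h. Its array of replicate 3 at 24 h was the lowest of that group but still well above all arrays at 0 h (3.97 ± 0.42, adjusted p = 9.87e-09). The light chain genes Myl1 and Myl4 rose by 3.75 ± 0.39 and 2.92 ± 0.27, the myosin kinase Mylk4 by 4.44 ± 0.33 and the myosin-binding protein Mybph by 4.38 ± 0.36. None of these genes had passed at 6 h, where the list held 0 higher and 0 lower genes (17.7% of all genes had passed at 6 h against 0 h, 9.47% higher and 8.21% lower).

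Genes of the Z-disc, the plate that anchors thin filaments, were mixed, with 9 of 31 higher and 3 lower and a median of 0.18. Synpo2l, an actin-binding Z-disc protein, had signals of 27.1, 30.8 and 47.2 at 0 h and 1822, 2280 and 1503 at 24 h and rose by 5.09 ± 0.35. Of its other 3 probe sets 2 rose as well (2.49 and 4.04) and 1 had means of 46.5 and 34.8. The small heat shock protein Hspb2 rose by 2.86 ± 0.29, the calcineurin-binding Myoz2 by 2.56 ± 0.37 and the ankyrin repeat protein Ankrd2 by 2.52 ± 0.38. Its relative Ankrd1 went the other way, from 2783, 3158 and 2856 to 182, 262 and 225, a fall of 3.44 ± 0.14 (adjusted p = 4.26e-17), and 1.66 of that fall was present at 6 h. The LIM protein Fhl1 fell by 2.11 ± 0.15 and the actin-bundling Palld by 0.81 ± 0.13, the latter not with the mean of its probe sets (adjusted p = 0.529). Desmin, Des, the intermediate filament of muscle, did not pass with the probe set used (0.28 ± 0.30, adjusted p = 0.56). Its other probe set rose from a mean of 9.88 to 165.8 (2.69, adjusted p = 2.2e-06 over all probe sets).

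The acetylcholine receptor, which receives the signal of the motor nerve, and its anchoring proteins formed a list of 16 genes, 7 higher and 1 lower with a median of 0.47. Chrng, the subunit of the fetal receptor, had signals of 5.54, 8.09 and 5.76 at 0 h and 4485, 5271 and 4270 at 24 h. The groups lay 7.64 ± 0.28 apart (adjusted p = 4.9e-18), with means of 55.9 at 6 h and 464 at 12 h. Chrna1, the subunit that binds acetylcholine, had 10.4, 67.2 and 25.2 at 0 h and 1489, 1678 and 1599 at 24 h, a rise of 5.06 ± 0.32 (adjusted p = 3.31e-13), and a mean of only 64.4 at 12 h. Chrnd rose by 3.29 ± 0.26 and Rapsn, which clusters the receptor, by 3.63 ± 0.31. Of the receptors that organise the synapse, Lrp4 rose by 2.64 ± 0.24 and the neuregulin receptor Erbb3 by 2.88 ± 0.25, while Erbb2 fell by 1.05 ± 0.23.

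The promoters of both subunits hold E-boxes of the kind that MyoD and myogenin bind, and they are shown because these genes were among the largest rises. Each window is the 250 bases before the gene's start in RefSeq on GRCm38.p6, written 5′ to 3′ on the strand of the gene, with matches to CAGCTG, or to CAGGTG on either strand, in capitals. Chrna1 lies on the minus strand at chr2:73580339-73580588 and its window holds 2 matches to CAGCTG and 1 to CAGGTG. Chrng lies on the plus strand at chr1:87205561-87205810 with 2 matches to CAGCTG.
Chrna1: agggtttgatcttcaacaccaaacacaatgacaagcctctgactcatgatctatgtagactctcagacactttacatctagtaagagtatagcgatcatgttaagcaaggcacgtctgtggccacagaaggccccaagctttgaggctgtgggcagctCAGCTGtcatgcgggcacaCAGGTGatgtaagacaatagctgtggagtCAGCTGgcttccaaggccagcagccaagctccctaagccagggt
Chrng: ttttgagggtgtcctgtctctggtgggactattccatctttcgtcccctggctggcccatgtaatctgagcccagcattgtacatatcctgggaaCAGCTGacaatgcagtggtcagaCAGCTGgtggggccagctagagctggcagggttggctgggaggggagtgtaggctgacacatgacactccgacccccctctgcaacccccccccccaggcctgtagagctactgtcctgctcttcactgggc

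CAGCTG, which reads the same on both strands, was present in 12.8% of 18109 windows of 14452 measured genes. It was present in 36 of 110 windows (32.7%) of the 100 genes that rose most, of which 75 had a window, and in 9.47% of the windows of the 100 that fell most. In windows of thin and thick filament genes that rose the share was 39.1%, or 9 of 23. CAGGTG was in 17.2% of all windows, 21.8% of those of the largest rises and 8.42% of those of the largest falls. The share for CAGCTG was 16.7% in windows of serum response genes that fell and 16.7% in those of cholesterol genes that rose. The MEF2 site was in 1.94% of all windows, in 4 of 23 (17.4%) of the filament windows, in 2 of 24 (8.33%) of those of serum response genes that fell and in 2 of 38 (5.26%) of those of mitosis genes that fell. Genes with several starts have several windows, and a match is a description of the letters, not of binding.

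Excitation-contraction coupling turns an electrical signal at the membrane into calcium release. Of 29 genes of this list 16 rose and 1 fell, with a median of 1.08. Stac3, which links the voltage sensor to the release channel, had signals of 7.75, 7.27 and 6.07 at 0 h and 1557, 2376 and 1722 at 24 h and rose by 6.29 ± 0.35 (adjusted p = 3.13e-14). Hrc, a calcium-binding protein of the sarcoplasmic reticulum, had 83.1, 135 and 164 at 0 h and 3564, 7601 and 3568 at 24 h, with the highest value in replicate 2 at 24 h and no overlap (4.91 ± 0.21, adjusted p = 1.06e-16). Its mean at 12 h was 142. Sarcalumenin, Srl, rose by 5.01 ± 0.35, the calcium buffer parvalbumin, Pvalb, by 3.79 ± 0.24, the voltage sensor Cacna1s by 3.13 ± 0.30 and its partner subunit Cacna2d1 by 3.23 ± 0.23. Ryr1, the release channel, had low signals of 6.42, 8.06 and 21.4 at 0 h and 43.4, 32.5 and 71.1 at 24 h and rose by 1.10 ± 0.33 (adjusted p = 0.00923), a call that did not hold without replicate 1 at 0 h (adjusted p = 0.0536). Its other probe set rose by 2.84 (adjusted p = 9.89e-09 over all probe sets). Fkbp1a, a channel-binding protein found in most cells, fell by 0.40 ± 0.11, though not with the mean of its probe sets (adjusted p = 0.122).

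Muscle energy genes rose in 12 of 27 cases with 0 lower (median 0.54). Cox8b, a cytochrome oxidase subunit of heart and skeletal muscle, had signals of 11.1, 9.18 and 16.7 at 0 h and 1428, 1918 and 1722 at 24 h. All 3 arrays at 24 h stood far above those at 0 h, by 5.83 ± 0.26 (adjusted p = 2.49e-16), while the mean at 12 h was 10.1. Adssl1, of the purine nucleotide cycle of muscle, rose by 5.11 ± 0.33 and the muscle phosphoglycerate mutase Pgam2 by 4.18 ± 0.33. The brain form of creatine kinase, Ckb, had signals of 556, 442 and 528 at 0 h and 6280, 6424 and 6896 at 24 h, a rise of 3.61 ± 0.13 (adjusted p = 2.83e-18). The muscle form, Ckm, did not pass with the probe set used (0.039 ± 0.25, adjusted p = 0.942), but its other probe set rose from a mean of 18.1 to 703.8 (4.29, adjusted p = 3.5e-10 over all probe sets). The muscle enolase Eno3 rose by 1.57 ± 0.15 from a signal of 727, 753 and 760.1 at 0 h. Its mean of 418 at 12 h was below that at 0 h (-0.77, adjusted p = 0.00027), so the rise followed a fall.

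Of 16 genes of the dystrophin complex, which ties the cytoskeleton to the basement membrane, 6 rose and 1 fell, with a median of 0.45. The laminin chain Lama2 rose by 2.77 ± 0.28 from 12.1, 5.91 and 10.4 to 158, 168 and 176. Beta-sarcoglycan, Sgcb, rose by 2.45 ± 0.18, the laminin receptor Itga7 by 2.11 ± 0.15, dystroglycan, Dag1, by 1.40 ± 0.15, Dtna by 1.38 ± 0.26 and Sspn by 1.03 ± 0.14, the last not with the mean of all its probe sets (adjusted p = 0.0645). The fall of Sgca, with means of 51.4 and 25.1 (-0.99 ± 0.35, adjusted p = 0.0323), did not hold without any of the 3 arrays at 0 h, nor without replicate 2 or 3 at 24 h (adjusted p between 0.0538 and 0.226).

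Of 21 genes of cell cycle exit 11 rose, 4 fell and 6 did not pass, with a median of 0.55. Rb1, the retinoblastoma protein that holds E2F factors in check, had signals of 90.3, 53.2 and 77.4 at 0 h and 1994, 2239 and 1607 at 24 h. It rose by 4.35 ± 0.22 (adjusted p = 5.72e-15), 2.93 of it by 6 h. Cdkn1a, the gene of the inhibitor p21, had 1506, 1594 and 1324 at 0 h and 5992, 7879 and 6712 at 24 h and rose by 2.26 ± 0.17 (adjusted p = 7.77e-12). Gadd45a rose by 2.87 ± 0.17, Ccng2 by 1.84 ± 0.17, Gas1 by 1.31 ± 0.14 and Btg1 by 1.10 ± 0.12. Cyclin D3, Ccnd3, which stays with differentiating muscle cells, rose by 0.74 ± 0.19 (adjusted p = 0.00224), but not under median centring of the arrays (adjusted p = 0.108). Of the Ink4 inhibitors Cdkn2d fell by 1.31 ± 0.17 and Cdkn2c by 0.82 ± 0.13, and the retinoblastoma relative Rbl1 by 0.87 ± 0.19.

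All 43 DNA replication genes that passed, of 47 measured, fell, with a median of -1.91 and 0 higher. The 4 others, Mcm2, Gins3, Rfc1 and E2f2, differed by -0.091, -0.13, -0.25 and 0.91. Gins2, of the helicase complex, had signals of 662, 608 and 705 at 0 h and 48.0, 24.2 and 21.1 at 24 h and fell by 3.85 ± 0.25 (adjusted p = 5.81e-13). Thymidine kinase, Tk1, fell by 3.68 ± 0.18, and the clamp loader Rfc5 fell by 3.60 ± 0.20. The fork protein Timeless, which is outside the list, fell by 3.57 ± 0.20 and the licensing factor Cdt1 fell by 3.10 ± 0.13. Mcm5, a subunit of the replicative helicase, had 2419, 2275 and 2167 at 0 h and 221, 212 and 169 at 24 h, a fall of 3.25 ± 0.13 (adjusted p = 1.25e-17). At 6 and 12 h its means were 2523 and 2045, no lower than at 0 h by the test. At 6 h 9 genes of the list were higher and 2 lower than at 0 h, and from 6 to 24 h 45 fell and 0 rose (12.3% of all genes were lower and 11.4% higher at 24 h than at 6 h).

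Mitosis genes were also lower at 24 h, after a rise at 6 h. Of 47 measured 43 were lower and 0 higher than at 0 h, with a median of -1.77. At 6 h 25 of them were higher and 0 lower than at 0 h, with a median of 0.51, and from 6 to 24 h all 47 fell. Top2a, the topoisomerase that untangles chromosomes, had 700.2, 758 and 762 at 0 h, 2186, 1560 and 2021 at 6 h and 273, 341 and 305 at 24 h. The arrays at 6 h were the highest and those at 24 h the lowest, with differences of 1.34 at 6 h (adjusted p = 2.66e-08) and -1.19 ± 0.14 at 24 h (adjusted p = 4.13e-08) against 0 h. Birc5, the gene of survivin, had 2435, 2275 and 2376 at 0 h and 244, 268 and 217 at 24 h and fell by 3.02 ± 0.14. Cenpa, the histone of centromeres, fell by 2.96 ± 0.15, Cdca8 by 2.83 ± 0.13, the spindle checkpoint protein Mad2l1 by 2.49 ± 0.15 and the mitotic kinase Cdk1 by 2.21 ± 0.13. The proliferation marker Mki67 had means of 352, 1442, 1712 and 167 at 0, 6, 12 and 24 h.

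The promoters of a pair of replication genes and a pair of mitosis genes are shown, since these lists had different medians at 6 h and each pair holds a motif known from the genes of its kind. In Mcm6 (minus strand, chr1:128359706-128359955) and Mcm5 (plus strand, chr8:75109259-75109508) capitals mark the E2F motif TTTGGCGC, on either strand. In Cdk1 (minus strand, chr10:69352913-69353162) and Top2a (minus strand, chr11:99024190-99024439) they mark the CHR motif TTTGAA of cell cycle genes, on either strand. All windows are the 250 bases before the start of the gene in RefSeq on GRCm38.p6.
Mcm6: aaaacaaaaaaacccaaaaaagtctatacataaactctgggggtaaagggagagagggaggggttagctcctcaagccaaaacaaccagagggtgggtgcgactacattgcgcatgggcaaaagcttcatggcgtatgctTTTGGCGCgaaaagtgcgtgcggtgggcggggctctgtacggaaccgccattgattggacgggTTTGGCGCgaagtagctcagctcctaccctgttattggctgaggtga
Mcm5: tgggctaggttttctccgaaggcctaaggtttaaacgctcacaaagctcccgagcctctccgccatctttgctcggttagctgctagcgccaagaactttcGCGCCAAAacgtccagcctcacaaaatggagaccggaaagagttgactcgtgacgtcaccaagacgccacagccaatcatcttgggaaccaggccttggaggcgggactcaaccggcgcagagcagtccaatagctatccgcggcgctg
Cdk1: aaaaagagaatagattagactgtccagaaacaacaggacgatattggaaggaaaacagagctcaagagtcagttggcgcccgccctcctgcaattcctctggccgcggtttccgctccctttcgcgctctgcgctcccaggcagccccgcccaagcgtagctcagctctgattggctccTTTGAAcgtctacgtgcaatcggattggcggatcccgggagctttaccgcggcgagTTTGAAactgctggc
Top2a: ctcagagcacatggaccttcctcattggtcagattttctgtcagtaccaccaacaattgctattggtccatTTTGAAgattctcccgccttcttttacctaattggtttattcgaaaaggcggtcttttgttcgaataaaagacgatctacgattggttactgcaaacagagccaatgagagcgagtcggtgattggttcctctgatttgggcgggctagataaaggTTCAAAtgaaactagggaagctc

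TTTGGCGC was present in 0.641% of all windows, in 3 of 43 windows (6.98%) of the replication genes that fell and in 0 of 38 windows of the mitosis genes that fell. TTTGAA was present in 11.9% of all windows, in 15 of 38 (39.5%) of the mitosis windows and in 4 of 43 (9.3%) of the replication windows. The motifs were searched as exact letters, so a variant of either is not counted.

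Genes that answer to serum and growth factors were the list with the lowest median, -2.15. Of 37 measured 30 fell and 1 rose. Ccn2 had signals of 7722, 7811 and 7034 at 0 h and 28.7, 66.1 and 49.9 at 24 h. Its fall of 6.83 ± 0.29 (adjusted p = 1.2e-16) was the largest of all genes, and by 6 h its mean was already 180.3. Its relative Ccn1 fell by 3.78 ± 0.17. Myc, the growth regulator, had 1674, 837 and 1539 at 0 h and 32.9, 28.3 and 86.3 at 24 h, with replicate 2 lowest at 0 h and no overlap between groups (-4.35 ± 0.31, adjusted p = 3.1e-12). Dusp6, the phosphatase that answers to ERK activity, fell from 2167, 1930 and 2300 to 82.5, 62.5 and 44.9, by 4.65 ± 0.27, and the ETS factor Etv4, another gene of that pathway, by 4.34 ± 0.32. Ier3 fell by 4.30 ± 0.17, the cyclooxygenase Ptgs2 by 4.16 ± 0.29 and the AP-1 subunit Fosl1 by 3.99 ± 0.19.

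At 6 h 28 of the serum response genes were lower and 2 higher than at 0 h, with a median of -1.63, so this list reached most of its fall before the replication and mitosis lists had fallen. Cyclin D1, Ccnd1, was an exception. Its means were 3144 at 0 h, 5532 at 6 h and 686 at 24 h, a rise of 1.01 at 6 h (adjusted p = 6.46e-06) and a difference of -1.94 ± 0.14 at 24 h (adjusted p = 9.12e-12). The member that rose, Jund, had 1693, 1637 and 1962 at 0 h and 3069, 2659 and 2041 at 24 h (0.70 ± 0.23, adjusted p = 0.0179). Its call did not hold under median centring, with the deposited values, with the mean of its probe sets, or without replicate 1 or 2 at 0 h or replicate 1 at 24 h (adjusted p between 0.0524 and 0.355). The CArG box, the site of serum response factor, was in 1.23% of all promoter windows and in 5 of 24 (20.8%) of those of serum response genes that fell. It was also in 3 of 23 (13%) windows of thin and thick filament genes that rose.

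**Figure D3:**
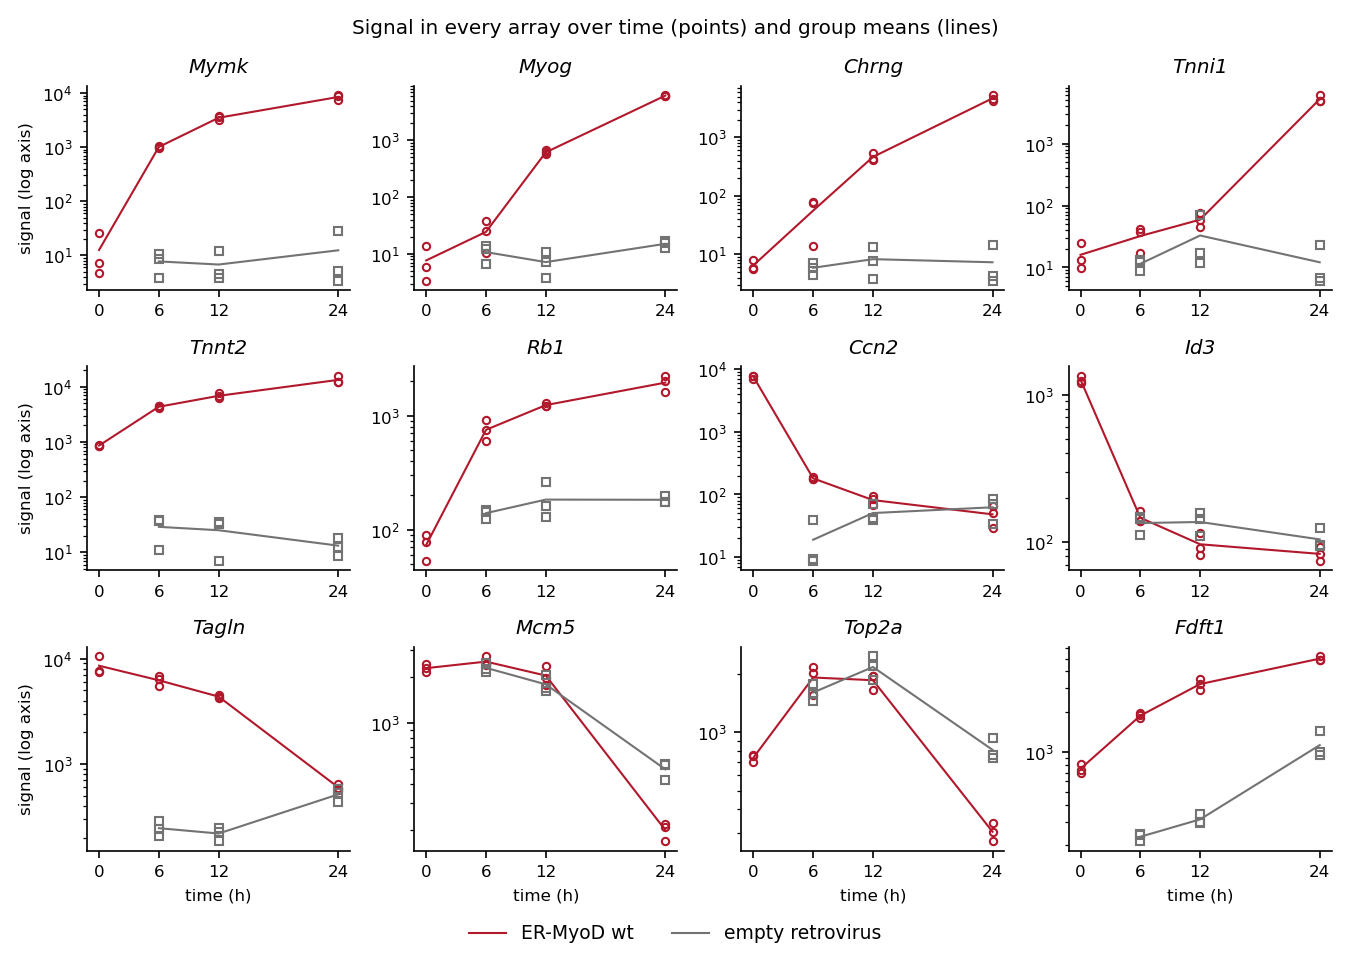
Signals of 12 genes at 0, 6, 12 and 24 h, with time in hours on the x axis and signal on a log y axis. Red circles are single arrays of ER-MyoD wt and grey squares single arrays of empty retrovirus (6, 12 and 24 h only), and lines join group means. Mymk and Tnnt2 rise by 6 h, Myog and Chrng mostly after 6 h and Tnni1 after 12 h; Ccn2 and Id3 fall by 6 h, Mcm5 and Tagln mostly after 12 h, and Top2a is highest at 6 h.

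Of 19 smooth muscle and stress fibre genes 11 were lower, 1 was higher and 7 did not pass at 24 h, with a median of -0.66. Tagln, an actin-binding protein of smooth muscle, had signals of 7584, 10550 and 7525 at 0 h and 641, 572 and 590.3 at 24 h. It fell by 3.61 ± 0.17 (adjusted p = 4.61e-16), with means of 6221 at 6 h and 4356 at 12 h, while empty retrovirus cells had 246 at 6 h and 515 at 24 h. Smooth muscle gamma-actin, Actg2, had 2076, 2146 and 1971 at 0 h and 158, 155 and 105 at 24 h and fell by 3.65 ± 0.27. The light chain Myl9 fell by 3.54 ± 0.28, calponin 2, Cnn2, by 2.09 ± 0.14, filamin A, Flna, by 2.03 ± 0.17 and alpha-actinin 1, Actn1, by 1.29 ± 0.11. Smoothelin, Smtn, was the member that rose, from 324, 333 and 274 to 631, 516 and 502 (0.75 ± 0.20, adjusted p = 0.00441).

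The list of fibroblast and progenitor identity held 32 genes, 15 lower and 4 higher, with a median of -0.64. Its share of higher genes was near the 14.5% of all genes. Twist2, a helix-loop-helix repressor of myogenesis, had signals of 2701, 2749 and 2749 at 0 h and 217, 246 and 258 at 24 h. Its groups were tight and far apart, with a fall of 3.22 ± 0.15 (adjusted p = 3.83e-16). The Wnt antagonist Dkk2 fell by 3.30 ± 0.25, from 236, 291 and 255 to 14.7, 13.2 and 13.2, where empty retrovirus cells at 24 h had a mean of 627. The homeobox gene Prrx2 fell by 2.95 ± 0.24 and the surface protein Thy1 by 1.96 ± 0.19. Pdgfra, a growth factor receptor of fibroblasts, fell by 1.35 ± 0.41 (adjusted p = 0.0108), a call that did not hold without replicate 1 at 0 h (adjusted p = 0.051) or replicate 3 at 24 h (0.127). Its mean of 188 at 0 h was already below the 1707 of empty retrovirus cells at 24 h. Fap (1.65 ± 0.20), Islr (1.49 ± 0.20), Dpt (1.28 ± 0.14) and Meis2 (1.13 ± 0.21) were the 4 that rose.

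Of 27 collagen chains 6 rose and 4 fell (median -0.05), and of 34 matrix glycoproteins, proteoglycans and crosslinking enzymes 6 rose and 14 fell (median -0.26). The share of collagen chains that fell was near the 16.2% of all genes. In the other matrix list the share that rose was near the 14.5% of all genes. Under median centring of the arrays 3 of the latter list were higher. Type III collagen, Col3a1, had signals of 2078, 1999 and 1906 at 0 h and 7093, 8039 and 5079 at 24 h and rose by 1.83 ± 0.11 (adjusted p = 2.79e-13). Type I collagen, Col1a1, did not pass (-0.30 ± 0.21, adjusted p = 0.316), but was called lower under median centring (-0.66, adjusted p = 0.0485) and with the mean of its probe sets (-0.48, adjusted p = 0.0425). Col12a1 fell by 2.07 ± 0.26. The small proteoglycans Ogn and Dcn rose by 2.08 ± 0.21 and 1.34 ± 0.13, and periostin, Postn, by 1.52 ± 0.12. For Dcn the arrays at 24 h were 2684, 2636 and 2015, against 985, 1325 and 827 at 0 h, and 8903, 11220 and 8563 in empty retrovirus cells at 24 h, so its rise left it below the cells without MyoD. Among the 14 matrix genes that fell, the crosslinking enzymes Loxl3 and Lox fell by 2.82 ± 0.13 and 2.05 ± 0.13, Ltbp1, which holds latent TGF-beta in the matrix, by 2.76 ± 0.15 and Fbln5 by 2.75 ± 0.12. Ecm1 fell by 2.30 ± 0.13 and tenascin C, Tnc, by 1.75 ± 0.13.

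Proteases of the matrix and their inhibitors fell in 12 of 23 cases and rose in 2, with a median of -0.37. Mmp10 had signals of 1352, 1746 and 1459 at 0 h and 79.9, 78.7 and 129.6 at 24 h, a fall of 3.66 ± 0.24 (adjusted p = 7.29e-13), and the related stromelysin Mmp3 fell by 2.32 ± 0.14. The inhibitor Timp1 had 5494, 5929 and 5477 at 0 h and 581, 715 and 679 at 24 h and fell by 2.92 ± 0.12 (adjusted p = 3.74e-17). Serpinf1 fell by 2.28 ± 0.11 and the cathepsin Ctsk by 1.58 ± 0.17. The 2 that rose were Adamts4 (1.53 ± 0.19) and Mmp11 (1.44 ± 0.21).

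Cholesterol synthesis and uptake had the largest share of members higher of the 30 lists, 19 of 20, with 1 lower and a median of 2.02. The order of the pathway was covered from its entry to its late steps. Hmgcs1, the synthase of the entry step, had signals of 846, 1005 and 899.5 at 0 h and 6355, 9522 and 4940 at 24 h and rose by 2.86 ± 0.16 (adjusted p = 2.34e-14). Idi1, the isomerase of the isoprene units, had 304, 216 and 246 at 0 h and 3731, 4159 and 3620 at 24 h and rose by 3.78 ± 0.16. Its muscle relative Idi2, which is outside the list, went from 2.50, 1.83 and 1.78 to 1251, 1418 and 1080, a rise of 6.12 ± 0.19 (adjusted p = 2.07e-19). Fdft1, the squalene synthase, rose by 2.73 ± 0.14, Lss, which closes the rings, by 2.68 ± 0.13, and the later enzymes Nsdhl and Hsd17b7 by 3.02 ± 0.12 and 2.76 ± 0.14. Ebp, the isomerase of the sterol ring, was the member that fell, from 1087, 1147 and 1175 to 536, 611 and 510.1 (-0.91 ± 0.15, adjusted p = 2.45e-05).

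At 6 h 13 cholesterol genes were already higher and 1 lower, and at 12 h 19 and 1 (20.3% of all genes had passed at 12 h against 0 h, 10.5% higher and 9.85% lower). Fatty acid synthesis followed in part, with 8 of 17 genes higher and 1 lower (median 0.55). Acss2, which makes acetyl-CoA from acetate, rose by 3.67 ± 0.27, the desaturases Scd1 and Scd2 by 2.25 ± 0.12 and 1.48 ± 0.13, the elongase Elovl6 by 1.99 ± 0.14 and the citrate lyase Acly by 1.66 ± 0.16. Fads3 fell by 1.52 ± 0.34.

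**Figure D4:**
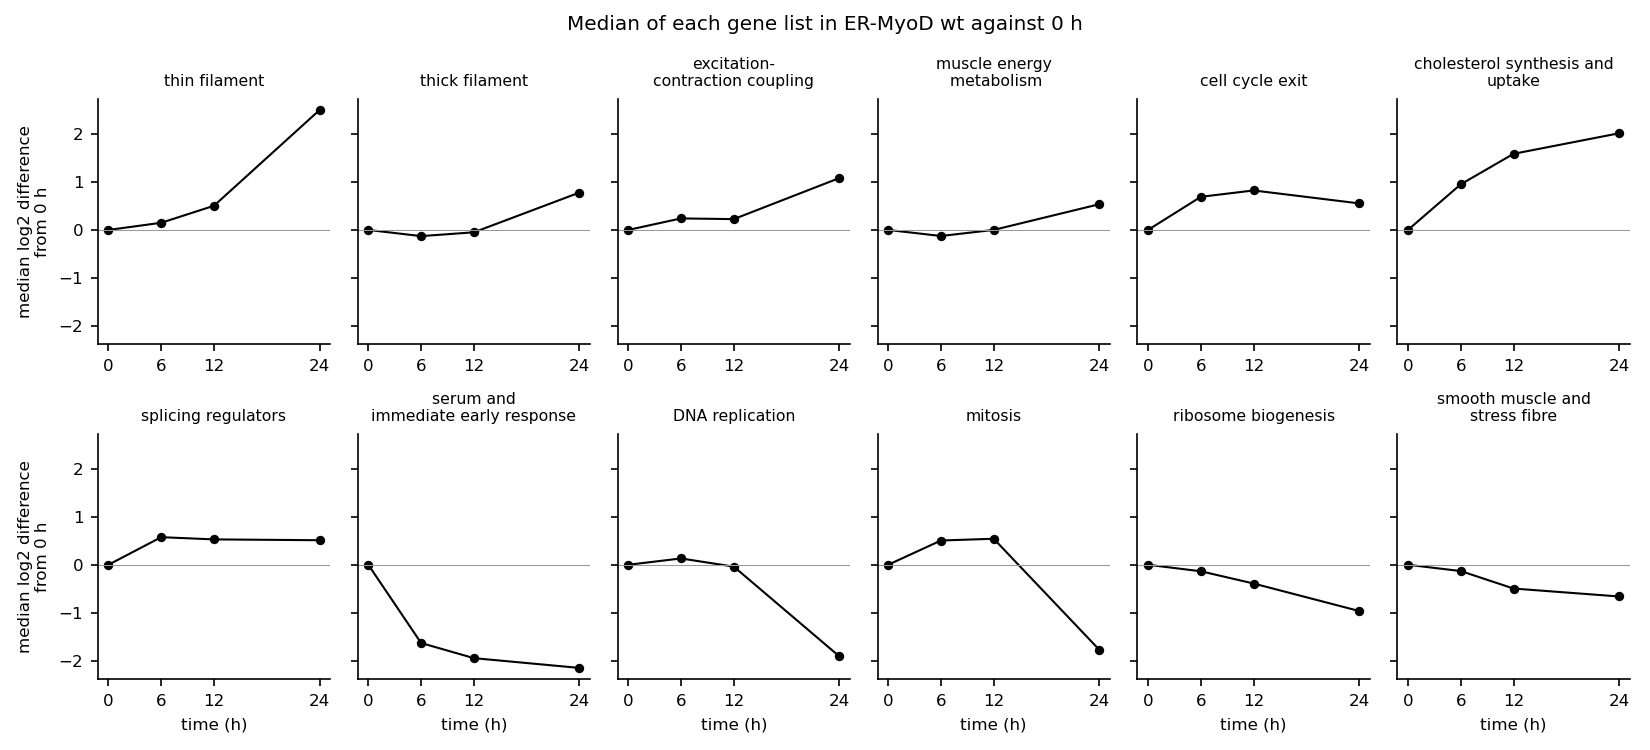
Median log2 difference from 0 h over the members of 12 gene lists in ER-MyoD wt at 6, 12 and 24 h, with time in hours on the x axis; the value at 0 h is 0 by construction. The serum response list falls by 6 h, cholesterol rises from 6 h, the mitosis list rises to 0.51 at 6 h and falls to -1.77 at 24 h, and the filament lists rise mainly after 12 h.

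Inhibitors of MyoD fell and a ligand of the Notch pathway rose. The Id proteins bind E proteins and keep them from MyoD. Id3 had signals of 1342, 1234 and 1201 at 0 h and 82.7, 91.9 and 74.2 at 24 h, a fall of 3.63 ± 0.19 (adjusted p = 7.47e-15), and 2.80 of this was reached at 6 h. Id1 had 1585, 1316 and 1545 at 0 h and 101, 111 and 182 at 24 h and fell by 3.25 ± 0.21, Id4 by 1.54 ± 0.20 and Id2 by 1.77 ± 0.40. Id2 took another course, with a mean of 321 at 0 h, 828 at 6 h and 91.6 at 24 h. The Notch ligand Dll1, which acts on neighbouring cells, had 79.0, 55.8 and 70.9 at 0 h and 1444, 1425 and 1271 at 24 h, a rise of 3.95 ± 0.14 (adjusted p = 2.83e-18) that had reached 3.33 at 6 h. The Notch target Hey1 rose by 2.66 ± 0.26 and Numb, which restrains Notch, by 1.23 ± 0.12. Another Notch target, Hes1, was lower, with signals of 299.7, 198 and 296 at 0 h and 194, 189 and 152 at 24 h (-0.61 ± 0.24, adjusted p = 0.0479). Its call did not hold without replicate 1 or 3 at 0 h or any of the 3 arrays at 24 h (adjusted p between 0.0519 and 0.193), nor under median centring (0.077) or with the deposited scaling (0.136). In all 8 of 25 genes of this list were higher and 5 lower, with a median of -0.17.

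Ligands and antagonists of TGF-beta, BMP and Wnt were lower in 11 of 33 cases and higher in 4 (median -0.36), a share of higher genes near the 14.5% of all genes. Smad7, the feedback inhibitor of TGF-beta signalling, had signals of 677, 656 and 644 at 0 h and 10.5, 28.5 and 18.9 at 24 h and fell by 4.26 ± 0.27 (adjusted p = 3.23e-13), 2.94 of it by 6 h. The BMP antagonist Grem1 fell by 3.44 ± 0.25 and the ligand Tgfb3 by 1.50 ± 0.19, while Tgfb2 rose by 2.13 ± 0.33 from 3.56, 21.5 and 39.1 to 174, 135 and 133. Follistatin, Fst, which binds myostatin and activin, rose by 1.10 ± 0.30 (adjusted p = 0.00469).

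The insulin-like growth factor axis and imprinted growth genes, 22 in all, were higher in 10 cases and lower in 3, with a median of 0.35. Their share of lower genes was near the 16.2% of all genes. Igf2, a growth factor that muscle cells secrete as they differentiate, had signals of 38.8, 24.1 and 86.8 at 0 h and 268, 219.8 and 187 at 24 h and rose by 1.84 ± 0.40 (adjusted p = 0.000639). Its clearance receptor Igf2r had 366, 431 and 459 at 0 h and 3166, 2808 and 2652 at 24 h and rose by 2.74 ± 0.15. Igf1 rose by 2.25 ± 0.21 and was already higher at 6 h (1.89). The imprinted RNA Meg3 rose by 2.82 ± 0.18. Plagl1 rose by 2.17 ± 0.17 and the binding protein Igfbp5 by 2.53 ± 0.16, each through a probe set marked as able to bind other transcripts; the other probe sets gave 0.17 for Plagl1 (adjusted p = 0.682) and 0.48 for Igfbp5 (0.414). The binding proteins Igfbp6 and Igfbp7 fell by 2.10 ± 0.15 and 1.88 ± 0.18, and necdin, Ndn, by 1.19 ± 0.27.

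Of 35 genes of the ribosome biogenesis list 24 were lower and 0 higher at 24 h, with a median of -0.96. The list also held Odc1, the ornithine decarboxylase that feeds polyamine synthesis and does not itself build ribosomes. Odc1 had the largest fall of the list, with signals of 3837, 4316 and 3781 at 0 h and 378, 378 and 433 at 24 h, a fall of 3.04 ± 0.098 (adjusted p = 2.63e-19). The nucleolar proteins Nop56, Gar1, Rrs1 and Noc2l fell by 1.72 ± 0.21, 1.47 ± 0.18, 1.42 ± 0.16 and 1.37 ± 0.14. At 6 h 9 genes of the list were higher and 4 lower than at 0 h.

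Splicing regulators were higher in 12 of 24 cases and lower in 5 (median 0.51). Ptbp1, which represses muscle exons in other cells, had signals of 3958, 3874 and 3994 at 0 h and 1111, 915 and 1187 at 24 h and fell by 1.65 ± 0.32 (adjusted p = 0.000147). Its relative Ptbp2 rose by 1.28 ± 0.18. Celf2 had 432, 689 and 415 at 0 h and 3072, 3905 and 3153 at 24 h and rose by 2.71 ± 0.14 (adjusted p = 4e-15), the muscle RNA-binding protein Rbm24 by 2.64 ± 0.24 and Rbfox2, which promotes muscle exons, by 1.09 ± 0.16. The falls of the SR proteins were small, 0.51 ± 0.19 for Srsf1, 0.66 ± 0.17 for Srsf2 and 0.36 ± 0.097 for Srsf3. For Srsf3 another probe set was called the other way (0.90, adjusted p = 0.00367 over all probe sets), and for Srsf2 the sign turned to 0.13 with probe sets whose names mark no shared sequence. The call of Srsf1 did not hold without 5 of the 6 arrays, each left out in turn (adjusted p between 0.0612 and 0.131), all but replicate 2 at 0 h. With the mean of its probe sets the difference of Srsf1 was -0.11 (adjusted p = 0.682). Its probe sets also went both ways. One rose by 1.18 (adjusted p = 0.000495 over all probe sets) and another fell by 0.92 (0.0199). With the mean of all probe sets of a gene 1 of the list was lower.

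**Figure D5:**
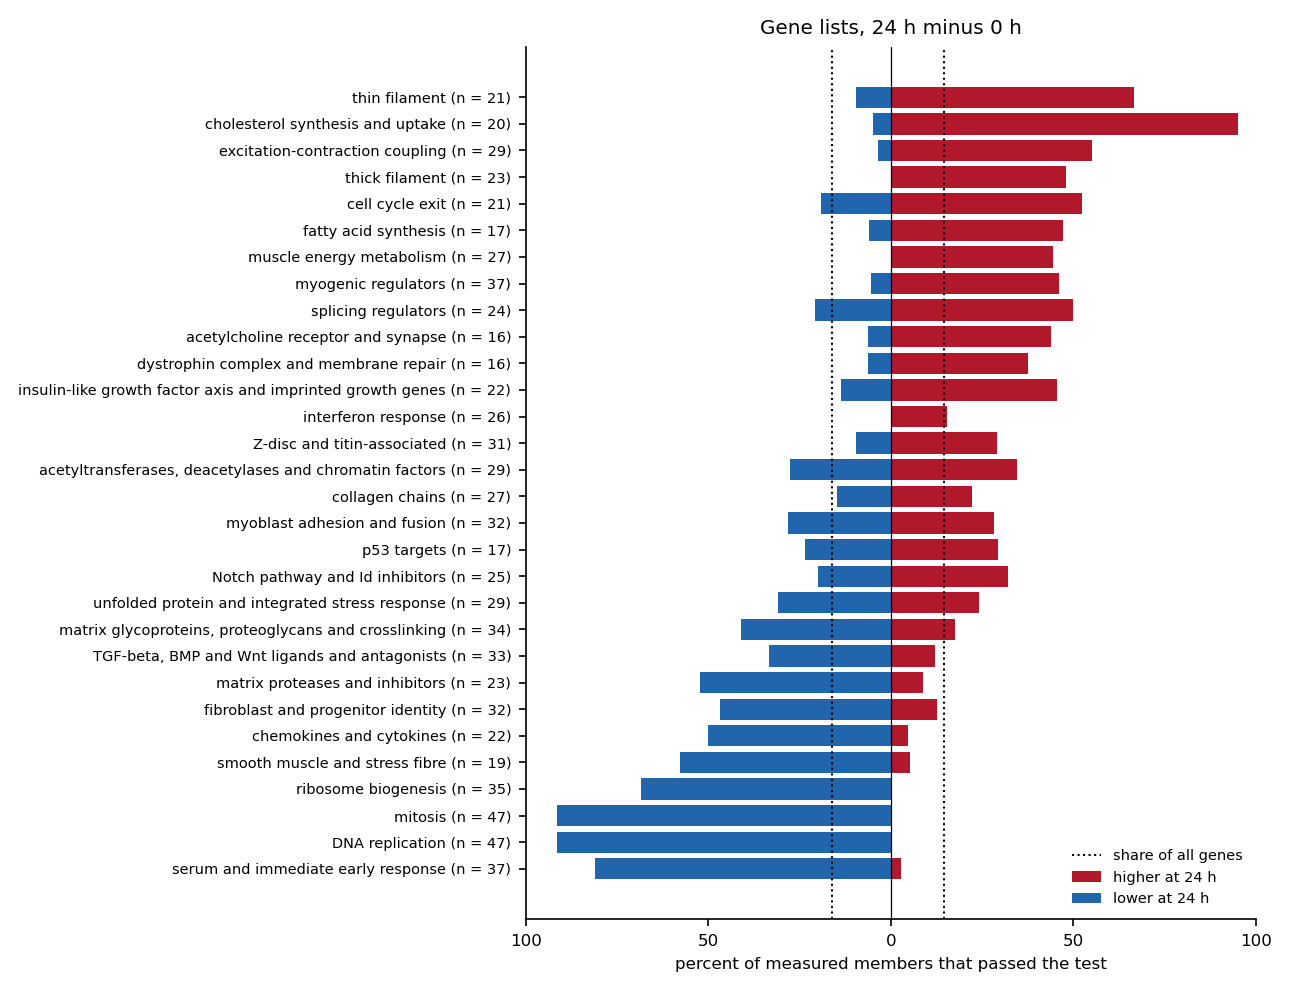
Share of the measured members of 30 gene lists that passed as higher (red, to the right) or lower (blue, to the left) at 24 h than at 0 h, in percent, with the number measured in brackets. Dotted lines mark the share of all genes, 14.5% higher and 16.2% lower; lists are ordered by median difference, from thin filament at the top to serum response at the bottom.

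Markers of other cell types were examined in 7 lists. Of 10 cardiac markers 1 rose, Gata4, from 53.7, 60.2 and 70.5 to 346, 299 and 304 (1.99 ± 0.23, adjusted p = 7.05e-08), while Nkx2-5, Nppa and Myl7 had means of 51.4, 46.7 and 7.54 at 24 h. The other 9 cardiac markers did not pass (14.5% of all genes were higher). The summed signal of the cardiac list was between 343 and 385 at 0 h and between 563 and 821 at 24 h. That sum includes Gata4, and the sum without Gata4 was not computed. Of 8 adipocyte markers and 11 of macrophages and blood 0 passed in either direction, and the summed ranges at 0 and 24 h overlapped in both lists, as they did for the cartilage and bone, neuron and glia, and epithelium lists. The summed signal of the endothelium list did not overlap, with 474 to 483 at 0 h and 502 to 868 at 24 h. All these sums are of the deposited signals, without quantile normalization. The median deposited signal was highest in replicate 3 at 24 h (59.2), and its part in the sums was not tested. Of 10 cartilage and bone markers Ibsp was lower, of 13 neuron and glia markers Tubb3 was lower, of 12 epithelium markers Krt19 was higher and of 11 endothelium markers Tek and Egfl7 were higher. The call of Ibsp did not hold without any single array of the 6 (adjusted p between 0.0597 and 0.124), and that of Tek held only without replicate 2 at 24 h. That of Krt19 did not hold without replicate 1 or 2 at 0 h or replicate 2 at 24 h (0.0709, 0.118 and 0.139), nor that of Egfl7 without replicate 1 at 0 h or 3 at 24 h (0.137 and 0.153). With probe sets whose names mark no shared sequence the difference of Egfl7 was 0.041 (adjusted p = 0.946, limma). Among defining markers, Ptprc of blood cells had a mean of 20.6 at 24 h, Pecam1 of endothelium 12.2, Cdh1 of epithelium 33.4 and Adipoq of fat 8.30, near the bottom of the scale, and their part in any result was not tested.

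The change from 6 to 24 h could be set against the same interval in empty retrovirus cells, which had the same medium. The change was more positive with ER-MyoD wt in 1167 genes (6.41%) and more negative in 1491 (8.2%). Under median centring of the arrays these counts were 600 and 1398, so that the share of more positive calls went from 43.9% to 30%. For the interval in ER-MyoD wt alone, 2077 genes rose and 2246 fell, 48% against 37.3% higher under that centring. Myog rose 6.96 ± 0.32 more than in empty retrovirus cells (adjusted p = 7.18e-15), Chrng 6.01 ± 0.40, Mylpf 6.70 ± 0.60 and Chrna1 5.41 ± 0.45. Their mean signals in empty retrovirus cells at 24 h were between 7.29 and 25.1.

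In the thin filament 12 of 21 genes and in the thick filament 11 of 23 changed more positively than in empty retrovirus cells, with 2 and 0 more negative. The mitosis list was more negative in 43 of 47 genes, and the replication list in 24 of 47, with 0 more positive in both. The change of Top2a differed from that in empty retrovirus cells by -1.52 ± 0.19 (adjusted p = 1.07e-06), and its mean there went from 1608 to 812. The change of Mcm5 differed by -1.26 ± 0.18 (adjusted p = 5.64e-06), and its mean there went from 2297 to 499.9. The call of Mcm5 did not hold with probe sets whose names mark no shared sequence (adjusted p = 0.106). The serum response list, which had fallen by 6 h, was more negative in 12 and more positive in 3 of 37 genes. For cholesterol the sign was the opposite of the 24 h rise, with 15 of 20 genes more negative and 0 more positive. Fdft1 went from a mean of 231 at 6 h to 1123 at 24 h in empty retrovirus cells and from 1866 to 4988 with ER-MyoD wt, a difference of -0.89 ± 0.20 (adjusted p = 0.00207; 0.233 with the mean of its probe sets). Of 27 collagen chains 12 were more negative and 0 more positive. Dcn, which rose between 0 and 24 h, did not differ by the test in this interval (0.015 ± 0.18, adjusted p = 0.977), and Postn was more negative (-2.56 ± 0.17, adjusted p = 1.23e-11).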

How the data were processed

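The deposited values were linear signal intensities, 1 per probe set and array, from Affymetrix Mouse Genome 430 2.0 arrays; the software that made them is not given in the sources used here. The deposited intensities had already been scaled, to a mean of 150 per array without the highest and lowest 2%. They were taken as log2(signal + 16) and quantile-normalized. Of 45101 probe sets, 64 controls were left out, and of the rest 34945 had 1 gene symbol, 932 several and 9160 none. Each of 18193 genes was read through its probe set with the highest mean. limma 3.58.1 (lmFit, eBayes with trend) was fitted over all 30 arrays in 10 groups, with Benjamini-Hochberg adjustment over all genes at 0.05, after being tested on simulated data. Members and gene lists were chosen with earlier results of these data known. Genes named are 28 core genes, the 20 largest rises and falls without overlap, up to 6 members per list with the smallest p, all called members of lists with 5 or fewer, and members opposite to most of their list. Mki67, the replication genes that did not pass and some cell markers were named after their values were seen. Promoter windows came from RefSeq on GRCm38.p6. Alternatives were other normalizations, pseudocounts, filters, probe set choices, fits, a replicate block and leaving out each array.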

Additional observations from a re-analysis of the deposited data

Results flagged for a closer look

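The change from 6 to 24 h in ER-MyoD wt cells differed from that in empty retrovirus cells in 1167 genes in the positive and 1491 in the negative direction, by the interaction term of limma. Of 28 core genes chosen for muscle, cycle and matrix, 22 passed, where 14.6% of all genes did. The core genes were chosen with earlier results of these data known, so their count of passes is not evidence. More positive with MyoD were Myog by 6.96, Mylpf by 6.70, Chrng by 6.01, Chrna1 by 5.41, Myh3 by 4.51, Actc1 by 4.19, Acta1 by 2.96, Mymk by 2.89, Mef2c by 2.54 and Tnnt2 by 2.10 on the log2 scale. Igf2 differed by 1.81, Cdkn1a by 1.49 and Rb1 by 1.09. The Rb1 call did not hold under median centring (adjusted p = 0.168), with the mean of its probe sets (0.23) or without ER-MyoD wt replicate 2 at 6 h (0.058), and that of Igf2 did not hold with a pseudocount of 1 (0.071), with the mean of its probe sets (0.0522) or without any of 6 single arrays. These were ER-MyoD wt replicate 2 at 6 h and replicates 1 and 2 at 24 h, and empty retrovirus replicate 2 at 6 h and replicates 1 and 3 at 24 h (adjusted p between 0.0518 and 0.133). More negative were Tagln (-4.40), Pdgfra (-3.10), Postn (-2.56), Myc (-1.99), Col1a1 (-1.99), Top2a (-1.52), Mcm5 (-1.26), Ccnd1 (-1.06) and Fdft1 (-0.89).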

How the results depend on the processing

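The number of arrays, 3 a group, limits the precision, and low signals carry the least. Of 258 named genes called at 24 h against 0 h, 217 kept their direction and call in every setting in which they were tested. Many of them were named for a large difference or a small p in this same comparison. The count therefore does not speak for the other called genes. The counts of higher and lower genes at 24 h against 0 h went from 2139 and 3110 under median centring to 2856 and 2726 with the deposited scaling, and leaving out each array in turn gave 2346 to 2489 higher and 2586 to 2747 lower genes. The count of genes with a more positive change than in empty retrovirus cells moved from 1167 to 600 under median centring; the cause was not tested. Replicate numbers did not pair the samples (correlations of 0.008, -0.0094 and 0.019 between same-numbered arrays), and a replicate block gave 2683 higher and 3007 lower genes. The sign of the 24 h difference turned for Ckm without replicate 2 at 0 h or 1 at 24 h, for Synpo2l (-0.44) and Srsf2 (0.13) with probe sets whose names mark no shared sequence, and Vcan with the mean of its probe sets (-0.13). For Ckm the values without single arrays lay between -0.14 and 0.15. The sign also turned without a single array in some uncalled cell markers, with ranges of -0.12 to 0.65 for Cebpa, -1.02 to 0.0076 for Sox10, -0.013 to 0.58 for Ptprc, -0.39 to 0.30 for Cidec and -0.26 to 0.098 for Sp7, and for Sp7 with the deposited scaling (0.0085). The difference from empty retrovirus cells turned for Ckm with the deposited scaling (0.031), the mean of its probe sets (2.02) and without single arrays (-0.29 to 0.021). It turned for Dcn with the deposited scaling (-0.030), centring (-0.18), a pseudocount of 64 (-0.0084), the mean of its probe sets (-0.30) and without single arrays (-0.070 to 0.090); the cause was not tested.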

Other observations

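Chemokines and cytokines were lower in 11 of 22 measured genes at 24 h and higher in 1, with a median of -0.65; 7 were lower with only genes at a mean log2 value of 6 or more. The neutrophil chemokine Cxcl1 had signals of 4019, 3681 and 3515 at 0 h and 338, 336 and 356 at 24 h and fell by 3.17 ± 0.20 (adjusted p = 3.77e-13, limma). The monocyte chemokines Ccl2 and Ccl7 fell by 1.84 ± 0.11 and 1.60 ± 0.16 and the cytokine Il6 by 2.22 ± 0.30. Il33 was the member that rose (1.13 ± 0.32), a call that did not hold without replicate 3 at 0 h (adjusted p = 0.0528). Of 26 interferon response genes 4 rose and 0 fell, a share of higher genes near the 14.5% of all genes. They were Ifit1 (2.26 ± 0.38), Igtp (1.65 ± 0.41), Xaf1 (1.12 ± 0.31) and Mx1 (0.90 ± 0.32), which are antiviral or immune effectors. The call of Xaf1 did not hold without replicate 2 at 24 h (adjusted p = 0.0527), nor that of Mx1 without replicate 2 or 3 at 0 h or replicate 1 or 2 at 24 h (0.0686 to 0.173).

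Of 29 genes of the unfolded protein and integrated stress response 7 rose and 9 fell (median -0.18). The 7 rises became 3 under median centring and 3 with the mean of all probe sets of a gene. The chaperone Dnajb9 rose by 0.89 ± 0.15 and the stress factor Atf5 fell by 1.44 ± 0.15. Among 17 targets of p53 5 rose and 4 fell. Ddit4, an inhibitor of growth signalling, rose by 2.43 ± 0.14 and the kinase Plk2 fell by 1.55 ± 0.20.

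Of 29 acetyltransferases, deacetylases and chromatin factors 10 rose and 8 fell, and 5 were lower without replicate 3 at 0 h. The deacetylase Hdac11 had signals of 114, 141 and 127 at 0 h and 849, 1113 and 910.1 at 24 h and rose by 2.64 ± 0.21 (adjusted p = 4.45e-11, limma). Smarcd3, the muscle subunit of the SWI/SNF remodelling complex, rose by 2.04 ± 0.16. The acetyltransferase Kat2a fell by 1.06 ± 0.19 and the deacetylase Hdac7 by 1.63 ± 0.19.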
